A study of Mus musculus with 6 samples.

Results

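CD8 T cells with Ccr8 transcripts were defined in a single-cell RNA count table of T cells sorted from mouse melanomas as cells with at least 1 unique molecular identifier (UMI, one counted transcript molecule) of Cd8a or Cd8b1, 0 UMIs of Cd4 and of Foxp3, and at least 1 UMI of Ccr8. They are called Ccr8+ CD8 cells here. The rule found 118 of 4497 CD8-gated cells, in a table of 12818 cells. The 4379 CD8-gated cells with 0 Ccr8 UMIs are called Ccr8- CD8 cells. The cells were thus chosen by their measured UMIs of Cd8a, Cd8b1, Ccr8, Cd4 and Foxp3, and the values of these genes are no result about them.

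The cells came from B16-F10 melanomas, a transplantable mouse melanoma line grown under the skin of Foxp3-EGFP-DTR mice. In these mice the promoter of Foxp3, the lineage factor of regulatory T (Treg) cells, drives a fluorescent toxin receptor, and Treg cells are lost when the mice receive diphtheria toxin (DTx). The 6 samples were TCR-b+ T cells of tumors from 3 mice given PBS and 3 given DTx. All animals were adult and carried the same allele and tumor. The table holds 6 libraries, known only by a number at the end of each cell barcode, and no label ties a number to a sample. The libraries are therefore named library 1 to library 6, no comparison of PBS with DTx was made, and the table was treated as 1 sample with no test between conditions.

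CCR8 is a chemokine receptor of activated T cells. It is best known on tumor Treg cells and on CD4+ T cells of the type 2 program, which make IL-4, IL-5 and IL-13. CCL1 is its main mouse ligand. CD8 T cells carry the CD8 coreceptor, see peptides on MHC class I and kill through granzymes and perforin, and in tumors they can gain checkpoint receptors such as PD-1 and TIM-3.

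Ccr8 (ENSMUSG00000042262) lies on chromosome 9 from 120092114 to 120094906, plus strand, in the GENCODE annotation of GRCm38. The promoters of Ccr8, Ccl1 and Il4 are shown because the receptor gene set the rule, the gene of its ligand CCL1 had more UMIs in the Ccr8+ CD8 cells, and Il4 headed the cytokine genes described further on. Each is the 250 bases before the RefSeq start site in GRCm38.p6, read 5′ to 3′ along the gene, at chr9:120091883-120092132 (plus strand), chr11:82179813-82180062 (minus strand) and chr11:53618666-53618915 (minus strand). RefSeq places the start of Ccr8 downstream of the GENCODE start, so the Ccr8 window ends inside the gene as located above. Distances are counted from the RefSeq start. Capitals mark matches, on either strand, to GATAA, the core that GATA factors bind, and to GGAAAA, a core bound by NFAT factors.
Ccr8: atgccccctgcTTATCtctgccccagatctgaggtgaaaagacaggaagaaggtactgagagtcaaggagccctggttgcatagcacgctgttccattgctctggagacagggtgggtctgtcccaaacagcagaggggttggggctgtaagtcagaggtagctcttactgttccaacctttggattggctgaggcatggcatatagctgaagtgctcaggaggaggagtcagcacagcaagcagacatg
Ccl1: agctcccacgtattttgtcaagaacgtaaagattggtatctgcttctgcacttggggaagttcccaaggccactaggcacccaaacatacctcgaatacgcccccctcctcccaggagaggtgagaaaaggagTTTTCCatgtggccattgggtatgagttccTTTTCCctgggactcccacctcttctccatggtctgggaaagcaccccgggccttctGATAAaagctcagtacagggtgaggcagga
Il4: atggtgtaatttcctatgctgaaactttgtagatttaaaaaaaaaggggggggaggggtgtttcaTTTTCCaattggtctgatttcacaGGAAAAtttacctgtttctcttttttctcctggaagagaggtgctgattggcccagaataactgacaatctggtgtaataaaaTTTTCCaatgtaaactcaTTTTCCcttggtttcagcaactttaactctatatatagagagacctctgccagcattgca
GATAA or its complement was found 1 time in the Ccr8 window, 239 bases before the start, 1 time in the Ccl1 window, and 0 times in that of Il4. GGAAAA was found 2 times in the Ccl1 window and 4 times in the Il4 window. Of 32851 RefSeq promoter windows of the same length, 22.6% hold GATAA and 20.4% hold GGAAAA, so matches of both kinds are common. TGANTCA, a core of AP-1 factors held by 6.75% of the windows, was found in none of the 3. Of 470 listed or named genes, 370 had a promoter in the RefSeq table.

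Of all 581 cells with a Ccr8 UMI, 20.3% lay in the CD8 gate. The CD4 Tconv gate (a Cd4 UMI, 0 UMIs of Cd8a, Cd8b1 and Foxp3) held 117 of them, 23 had a Foxp3 UMI, 26 had UMIs of both Cd4 and Cd8, and 297 had no UMI of any of these genes. Within gates, 2.62% of CD8-gated cells had a Ccr8 UMI (95% exact binomial interval 2.18 to 3.13, median depth 1708 UMIs), against 9.71% of CD4 Tconv cells (8.10 to 11.5, median 1622 UMIs) and 20% of cells with a Foxp3 UMI (13.1 to 28.5, median 1663 UMIs). The share in CD8 cells was thus below that in both other gates at like depth. All intervals given here cover counting error only.

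The share differed among the libraries. Libraries 1 to 6 gave 19 of 622 cells (3.05%), 2 of 886 (0.226%), 9 of 402 (2.24%), 35 of 827 (4.23%), 31 of 869 (3.57%) and 22 of 891 (2.47%). Library 2 stood below all others, with an interval of 0.0273 to 0.813%, while the intervals of the other 5 overlapped. Depth differed among the libraries too, with medians of 1065, 1064, 610, 2499.5, 2063 and 1278 UMIs per cell in libraries 1 to 6. Libraries 1 and 2 were alike in depth and far apart in the share. When every cell was reduced at random to 1000 UMIs, which left out 7 Ccr8+ and 755 Ccr8- CD8 cells of lower depth, the pooled share was 0.910% (0.631 to 1.27). The thinned shares were 1.48, 0.144, 2.78, 0.752, 0.948 and 0.940% in libraries 1 to 6, with libraries 3 and 1 now highest. Library 2 stayed lowest, but its interval (0.00364 to 0.798) then overlapped those of all others except library 3 (0.908 to 6.36).

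**Figure D1:**
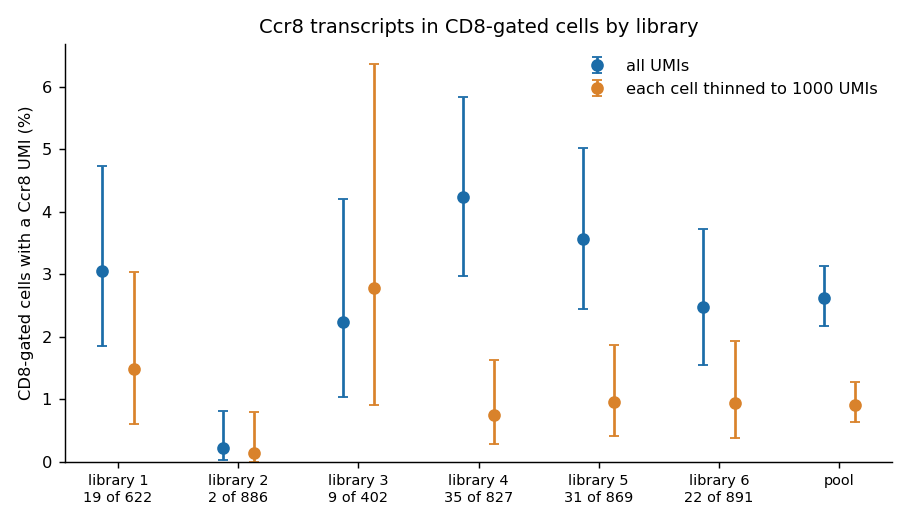
Share of CD8-gated cells with a Ccr8 UMI (percent, y axis) in each library and in the pool (x axis, with Ccr8+ and all CD8-gated cells below each library), from all UMIs (blue) and with each cell thinned to 1000 UMIs (orange); bars are 95% exact binomial intervals. Library 2 is lowest on both scales, at 0.226% and 0.144%, and the order of the others differs between the scales.

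CD8-gated cells with naive T cell genes were taken as a background for Ccr8 UMIs. Whether their Ccr8 UMIs came from free RNA or from the cells themselves was not tested. Among CD8-gated cells with UMIs of at least 2 of the naive T cell genes Ccr7, Lef1 and Tcf7, 1.82% had a Ccr8 UMI (12 of 658, interval 0.946 to 3.16, median 1542 UMIs), against 2.76% of the other CD8-gated cells (106 of 3839, interval 2.27 to 3.33, median 1749 UMIs). These intervals overlap, and the pooled background rested on library 2, which held 374 of the 658 naive-like cells. In libraries 1 to 6 the naive-like share was 1.47, 0.267, 5.26, 4.08, 8.89 and 6.25% (2 of 136, 1 of 374, 2 of 38, 2 of 49, 4 of 45 and 1 of 16 cells). That of the other CD8 cells was 3.5, 0.195, 1.92, 4.24, 3.28 and 2.4%. The naive-like share was the higher one in libraries 2, 3, 5 and 6, on 1 to 4 cells each, and the intervals of both shares overlapped in every library. Naive-like cells were also deeper in library 5 (median 3664 against 2332.5 UMIs) and library 6 (2801.5 against 1545). Without library 2 the shares were 3.87% (11 of 284, interval 1.95 to 6.82, median 2023 UMIs) and 3.16% (105 of 3327, interval 2.59 to 3.81, median 1893 UMIs). The share of CD8-gated cells with a Ccr8 UMI was therefore not above that of naive-like cells outside library 2, and is not read here as a frequency of cells that express CCR8. With all 3 naive genes, a cut chosen after the first was seen, the share was 0.614% (1 of 163, interval 0.0155 to 3.37, median 1783 UMIs), and without library 2 0 of 57 cells had one, with an exact upper bound of 6.27% (5.26% by the limit of 3 counts). How many of the 118 cells hold a Ccr8 UMI from free RNA was not tested. Most held little of it: 96 had 1 Ccr8 UMI, 16 had 2 and 6 had 3 or more, up to 8.

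The Ccr8+ CD8 cells were deep cells. Their median was 3354.5 UMIs and 1289.5 genes, against 1684 UMIs and 737 genes in Ccr8- CD8 cells, and 67 of the 118 lay in the highest depth quartile of their library. Each comparison below, except shares at 1000 UMIs per cell, therefore set the UMIs counted in the Ccr8+ cells against an expected number. This number came from Ccr8- CD8 cells of the same library and depth quartile. Within these strata the Ccr8+ cells still held 10.8% more UMIs per cell than expected (3684 against 3325), which can raise any share of cells with a UMI, so shares are also given at 1000 UMIs per cell. The expected shares at 1000 UMIs come from Ccr8- CD8 cells of the same library, with no match by depth quartile. Ratios of summed UMIs are divided by total UMIs, which does not remove a difference in gene content between deeper and shallower cells. Genes at least 2-fold higher numbered 78 matched by library only, 62 by library and quartile and 63 by library and depth decile. The part of the remaining depth difference in single ratios was not tested.

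Nearly all of the cells carried markers of T cells. A UMI of Cd3d, Cd3e or Cd3g, the chains of the T cell receptor complex, was found in 117 of 118 Ccr8+ CD8 cells, and the 12 T cell identity genes summed to 67.3 UMIs per 10000 (64.5 to 71.2 over the 4 libraries with at least 10 such cells) against 66.9 in Ccr8- CD8 cells (56.2 to 70.0). These genes do not separate CD8 from CD4 cells. The 7 genes of the CD8 lineage list, none of them a gate gene, summed to 17.4 UMIs per 10000 (12.2 to 21.5 by library) against 19.2 (7.98 to 24.8) in Ccr8- CD8 cells, and the 5 genes of the CD4 lineage list, described further on, to 3.34 against 0.861. Matched by library and depth quartile, the ratio was 0.882 (0.820 to 0.947) for the CD8 lineage list and 3.45 (2.91 to 4.06) for the CD4 lineage list. By the gate every cell had at least 1 Cd8 UMI, 100 cells had at least 2, and 74 had both Cd8a and Cd8b1. Doublets were not called. More than 2000 genes were found in 12.7% of the Ccr8+ CD8 cells, where 7.43% were expected, and UMIs of several T cell receptor beta V genes in 44.9%, where 37.6% were expected. Of cells with a Cd4 UMI and no Foxp3 UMI, 11.9% also had a Cd8 UMI, so a CD4 cell with no Cd4 UMI can enter the CD8 gate. The part of doublets and of such cells in the results was not tested, and values for cells with both Cd8 genes are given beside them. Barcodes shared between libraries numbered 76, and 3 Ccr8+ CD8 cells carried one.

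Markers of other cell types were summed as well. All 6 melanoma markers were at 0 in the 118 cells. The gamma delta T cell genes gave 5 UMIs in 5 cells over 3 of 7 genes, with the chain Trdc at 0, or 0.115 per 10000 against 0.168 in Ccr8- CD8 cells. The B cell genes gave 34 UMIs in 25 cells, or 0.782 against 0.968. The 10 myeloid genes summed to 125 UMIs in 62 cells, or 2.88 per 10000 (1.17 to 3.41 by library) against 1.57 (0.575 to 1.90) in Ccr8- CD8 cells. Csf1r, H2-Aa, Fcgr3 and Apoe were at 0 among them. Matched by library and depth quartile, the ratio was 1.61 (1.34 to 1.92) for the myeloid genes and 0.945 (0.654 to 1.32) for the B cell genes. Cd74, the invariant chain of MHC class II, gave 31 UMIs where 7.01 were expected, in 14 cells. The part of myeloid RNA in the results was not tested.

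Of 4525 genes with at least 20 observed plus expected UMIs, 62 were at least 2-fold higher in Ccr8+ than in Ccr8- CD8 cells, which is 1.37% of the genes, and 31 at least 2-fold lower, which is 0.685%. These are descriptions of 1 set of cells, and no p was computed. Ratios leaned upward in general, with a median log2 ratio of 0.06 and 57.5% of genes above 1. Scaled by the trimmed mean of M values, a shift of 0.06 on the log2 scale, the counts were 43 higher and 40 lower, and centred on the median ratio 46 and 39. Left without library 4, the count of higher genes was 35, and left without library 5, the count of lower genes was 19. Genes of the gate itself were not counted.

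Most of the prepared lists lay close to all genes, whose median was 0.06. Of all genes tested, 1.37% were at least 2-fold higher and 0.685% lower, which is the background for the counts below. Of the 20 type 2 genes in the table, 9 had enough UMIs. Il13, Il4 and Il1rl1, with 1.84, 4.74 and 5.52 UMIs expected, could reach the minimum of 20 only through the Ccr8+ cells, so the counts of this list are a description. Of the 9 genes, 6 were at least 2-fold higher and 0 lower, with a median log2 ratio of 1.84. The median was 1.68 over 19 genes with no minimum, 0.89 when the cell richest in each gene was left out, 1.24 over 5 genes without library 4, and 1.13 over 6 genes in cells with both Cd8a and Cd8b1. Among 8 Treg-associated genes 2 were at least 2-fold higher (median 0.65), among 14 factors linked to exhaustion 2 (0.52), among 21 early genes induced by the T cell receptor 0 (0.43), and among 10 costimulatory receptors 1 (0.28). The Treg-associated gene Nrp1, with 7.59 UMIs expected, also reached the minimum only through the Ccr8+ cells, so that count is a description too. Tissue residency genes (12 tested, 0.23), S100 and galectin genes (12, 0.21), interferon-stimulated genes (13, 0.20), glycolysis genes (14, 0.18) and MHC class I genes (13, 0.06) had 0 members at least 2-fold higher, and 1 interferon-stimulated gene was at least 2-fold lower. The 26 cell cycle genes had a median of -0.02 and the 12 T cell identity genes one of 0.05, with 0 past 2-fold in either direction. Matched by library alone, without depth, the cell cycle genes had a median of 0.37. The 11 naive and homing genes (-0.23, 0 at least 2-fold lower) and the 9 memory and stem-like genes (-0.23, 1 lower) had the lowest medians. The medians of the T cell identity, cell cycle and cytotoxic lists changed sign under at least 1 other setting and give no direction.

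**Figure D2:**
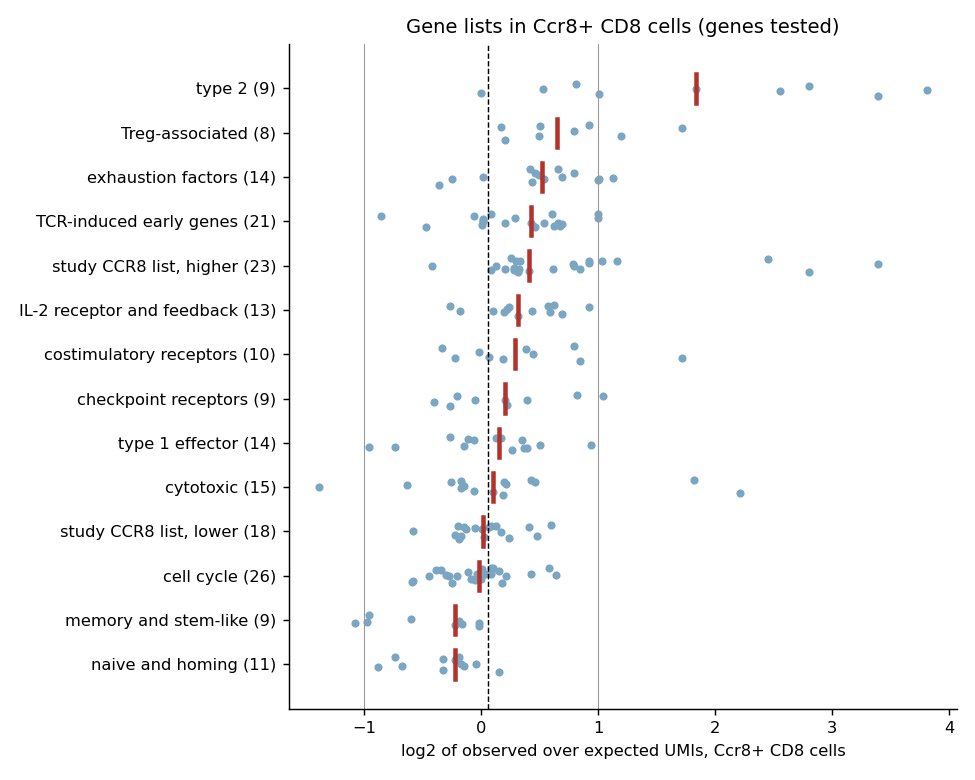
Log2 of observed over expected UMIs in Ccr8+ CD8 cells (x axis) for the tested genes of each list (y axis, number tested in parentheses); points are genes, red bars list medians, the dashed line the median of all 4525 genes and the grey lines 2-fold. Type 2 genes reach a median of 1.84, and naive and homing genes one of -0.23.

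Tnfrsf4 and Cd40lg were higher, and the difference was spread over many cells. Tnfrsf4 encodes OX40, a costimulatory receptor of activated T cells. Its level was 2.33, 4.55, 4.33, 2.98, 3.29 and 9.01 UMIs per 10000 in Ccr8+ CD8 cells of libraries 1 to 6, against 0.801, 0.138, 0.796, 0.707, 0.870 and 1.63 in Ccr8- CD8 cells. The Ccr8+ cells were higher in all 6 libraries, and the ranges did not overlap. Tnfrsf4 was found in 52 of 118 cells, 44.1% (34.9 to 53.5), where 16.3% were expected, and at 1000 UMIs per cell in 29.7% (21.4 to 39.2) where 5.22% were expected. By library, 8 of 19, 1 of 2, 4 of 9, 11 of 35, 16 of 31 and 12 of 22 cells had it. The ratio of summed UMIs was 3.31 (2.84 to 3.83). A single cell of library 6, which had 1 Cd8 UMI and 0 UMIs of Gzmb, Nkg7 and Ccl5, gave 38 of the 179 UMIs, and without it the ratio was 2.62 (2.21 to 3.09).

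Cd40lg, the ligand through which helper T cells activate antigen-presenting cells, was found in 36 cells, 30.5% (22.4 to 39.7), where 10.3% were expected. Its level was 1.17, 1.52, 0.787, 2.76, 1.53 and 2.15 UMIs per 10000 in the Ccr8+ CD8 cells of libraries 1 to 6, against 0.240, 0.161, 0.935, 0.747, 0.437 and 0.427 in Ccr8- CD8 cells. The Ccr8+ cells were higher in 5 libraries and lower in library 3. At 1000 UMIs per cell the shares were 10.8% (5.71 to 18.1) and 3.83%. Set against depth-matched cells, all 6 libraries were above their expected number, with 4, 1, 2, 13, 8 and 8 cells where 1.30, 0.0909, 1.23, 4.17, 3.40 and 2.004 were expected. The ratio was 3.39 (2.70 to 4.20), and 2.97 (2.32 to 3.73) without the cell richest in it.

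Icos, a costimulatory receptor of the CD28 family, was found in 64.4% of cells (55.1 to 73.0; 51.5% expected), with a ratio of 1.36. Tnfrsf9 (4-1BB) had a ratio of 1.80 and Tnfrsf18 (GITR) one of 1.73, with 31.4 and 44.9% of cells against 22.3 and 34.8% expected. At 1000 UMIs per cell the expected shares of these 2 genes lay inside the interval of the Ccr8+ cells. The other 6 costimulatory genes tested had log2 ratios between -0.33 (Cd226) and 0.38 (Cd28).

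Il2ra, the high-affinity chain of the IL-2 receptor, was found in 42 cells, 35.6% (27.0 to 44.9), where 16.9% were expected. Its ratio was 1.90 (1.49 to 2.39). At 1000 UMIs per cell, 8.11% of Ccr8+ cells had it (3.77 to 14.8) and 5.25% were expected, so the difference in cells was not detectable at that depth. None of the 13 IL-2 receptor and feedback genes passed 2-fold, and 11 of 13 were above 1, as were 57.5% of all genes. The highest after Il2ra were Cish (log2 0.69), a feedback inhibitor, and Socs2 (0.62).

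**Figure D3:**
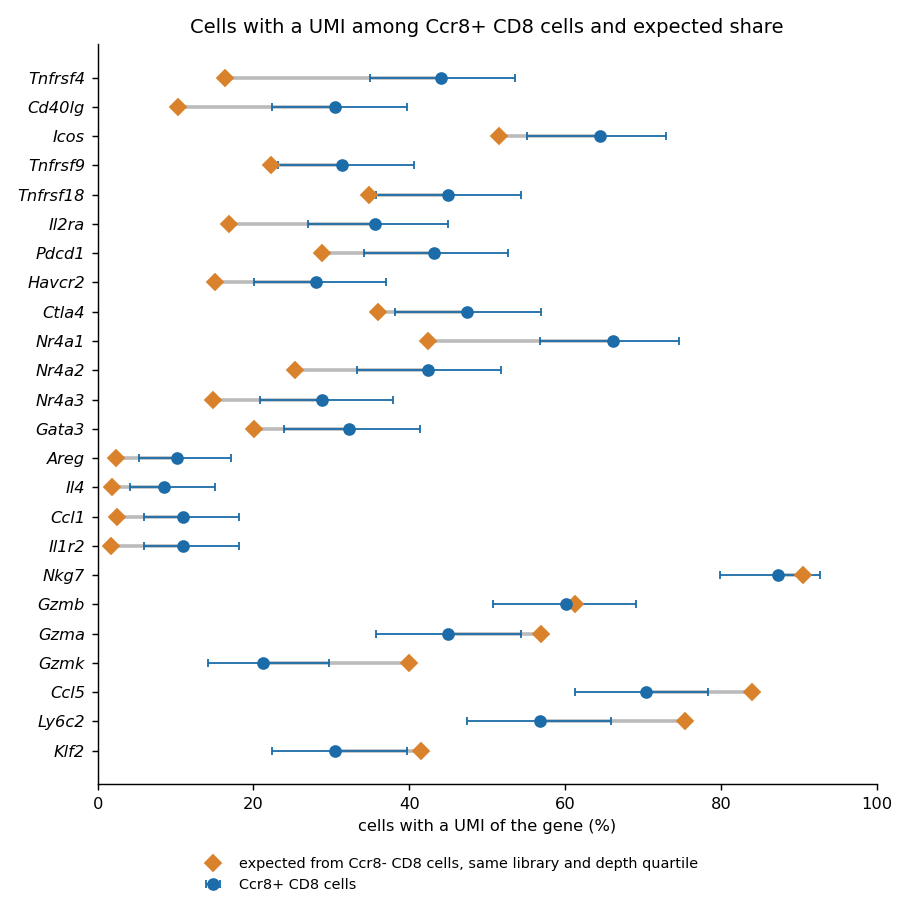
Percent of cells with a UMI of the gene (x axis) for 24 genes (y axis) in the 118 Ccr8+ CD8 cells (blue, 95% exact binomial intervals) and the share expected from Ccr8- CD8 cells of the same library and depth quartile (orange). Tnfrsf4, Cd40lg, Nr4a1 and Il2ra lie right of their expected share, while Gzmk, Ccl5 and Ly6c2 lie left.

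Among 9 checkpoint receptors tested, Pdcd1 (PD-1) and Havcr2 (TIM-3) were higher, and the other 7 had log2 ratios between -0.40 (Cd96) and 0.39 (Lag3). Pdcd1 was found in 51 cells, 43.2% (34.1 to 52.7; 28.8% expected). Its level was 2.83, 3.03, 1.57, 3.197, 3.44 and 2.69 UMIs per 10000 in the Ccr8+ CD8 cells of libraries 1 to 6, against 0.911, 0.107, 1.49, 1.77, 1.99 and 1.53 in Ccr8- CD8 cells, lower in every library but close in library 3. Cells with Pdcd1 were above the expected number in all 6 libraries, with 7 of 19, 1 of 2, 3 of 9, 14 of 35, 18 of 31 and 8 of 22. The ratio of Pdcd1 was 1.77 (1.48 to 2.10), and 20.7% of cells had it at 1000 UMIs (13.6 to 29.5; 12.3% expected). Havcr2 was found in 33 cells, 28.0% (20.1 to 37.0; 15.03% expected), of which 16 came from library 4, 14 from library 5 and 3 from library 6. No cell of libraries 1 to 3 had it, where at most 0.638 were expected. Its log2 ratio of 1.04 was 0.80 without library 4, 0.96 without library 5, 0.74 without cells of over 2000 genes and 0.98 under the trimmed mean of M values, below 2-fold in each case.

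Lag3 (ratio 1.32, interval 0.870 to 1.92), Ctla4 (1.15, 0.934 to 1.40) and Tigit (0.868, 0.678 to 1.10) had intervals that include 1. At least 2 of Pdcd1, Havcr2, Lag3, Tigit and Ctla4 were found together in 57.6% of the Ccr8+ CD8 cells (48.2 to 66.7), where 39.9% were expected. Cycling cells, with a UMI of Mki67, Top2a, Birc5 or Cdk1, made up 32.2% (23.9 to 41.4) against 28.8% expected. Naive-like cells made up 10.2% (5.37 to 17.1) against 11.1%.

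The Nr4a genes, nuclear receptors induced by T cell receptor signals, were all higher. Nr4a1 was found in 78 cells, 66.1% (56.8 to 74.6; 42.4% expected), above the expected number in all 6 libraries, with a ratio of 1.61 (1.41 to 1.84). Nr4a2 had a ratio of 1.59 (1.28 to 1.94) and Nr4a3 one of 2.01 (1.53 to 2.59). At 1000 UMIs per cell Nr4a1 was found in 36.0% (27.1 to 45.7) against 21.1% expected, while Nr4a3 (6.31 against 5.66%) could not be separated. Among the other exhaustion factors, Rbpj, the transcription factor of the Notch pathway, had a log2 ratio of 1.12, Maf 1.01, and Prdm1 (Blimp-1) 0.80. The value of Maf fell below 2-fold under several settings, down to 0.78 without cycling cells. Tox, a factor of chronic stimulation, was at 0.43 with an interval of the ratio that includes 1 (0.821 to 2.13). Of the 21 early genes tested, which include the activation marker Cd69 (log2 0.02), 18 were above 1 (57.5% of all genes were) and 0 were past 2-fold on the log2 scale with its pseudocount. Among those above 1, the AP-1 gene Fosl2 (0.9996) was just under 2-fold, and the stress gene Gadd45b was at 0.67. The AP-1 gene Jun was at -0.85, the phosphatase gene Dusp2 at -0.47 and Fos at -0.06, and these were the 3 below 1.

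Genes of effector CD8 cells differed among themselves. Gzmk, a granzyme of early effector and memory cells, was lower. It was found in 25 cells, 21.2% (14.2 to 29.7), where 40.02% were expected. Its level was 1.67, 0, 0.787, 1.09, 0.536 and 1.08 UMIs per 10000 in the Ccr8+ CD8 cells of libraries 1 to 6, against 1.83, 0.176, 1.99, 3.06, 2.69 and 2.70 in Ccr8- CD8 cells. Cells with Gzmk were below the expected number in all 6 libraries (4 of 19, 0 of 2, 1 of 9, 8 of 35, 6 of 31 and 6 of 22 cells). Its ratio was 0.380 (0.274 to 0.514), and the shares at 1000 UMIs were 6.31% (2.57 to 12.6) and 20.6%. Its log2 ratio of -1.38 became -0.90 when cells with a UMI were counted in place of UMIs.

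Ccl5, a chemokine of effector and memory CD8 cells, was found in 70.3% of cells (61.2 to 78.4; 83.9% expected), with a ratio of 0.600 (0.576 to 0.626). It was below the expected number of cells in 4 libraries and above it in libraries 1 and 3. Ly6c2, a surface marker of effector and memory CD8 cells, was below the expected number in all 6 libraries, at 56.8% (47.3 to 65.9) against 75.4%. The ratio of Ly6c2 was 0.625 (0.570 to 0.685).

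Nkg7 (87.3% of cells, 90.5% expected) and Gzmb (60.2%, 61.3% expected), which belong to the killing machinery, were found in nearly the expected share, with ratios of 0.905 (0.841 to 0.974) and 0.834 (0.757 to 0.918). Gzma had a ratio of 0.643, with a log2 ratio of -0.64 that was -1.33 without library 5 and -0.21 without library 4. It was found in 44.9% of cells (35.7 to 54.3; 56.9% expected), below the expected number in all 6 libraries. At 1000 UMIs per cell the share was 29.7% (21.4 to 39.1; 46.1% expected). Prf1, perforin, gave 16 UMIs (ratio 1.14, 0.652 to 1.85). The type 1 cytokine genes Ifng (1.09, 0.964 to 1.23) and Tnf (log2 0.39) and the factor Tbx21 (0.35) were near 1, while Eomes, a factor of memory and effector CD8 cells, was at 0.502 (0.241 to 0.924). Klf2, which keeps T cells recirculating, was at 0.542 (0.429 to 0.675).

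The largest ratios, those of type 2 and growth factor genes among them, rested on few cells. Il4 gave 73 UMIs where 4.74 were expected, a ratio of 15.4 (12.1 to 19.4). Of these, 54 came from 1 cell of library 4, and without it the ratio was 4.02 (2.42 to 6.28). Il4 was found in 10 cells, 8.47% (4.14 to 15.03; 1.81% expected), which numbered 0, 0, 0, 4, 1 and 5 in libraries 1 to 6.

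Il13 gave 24 UMIs in 5 cells, of which 9 were in 1 cell (ratio 13.1; 8.19 without it), and Il5 gave 3 UMIs in 2 cells. A UMI of Il4, Il5 or Il13 was present in 12 cells, 10.2% (5.37 to 17.1), where 2.09% were expected. They were 0, 0, 2, 4, 1 and 5 cells in libraries 1 to 6. Gata3, the lineage factor of type 2 cells, was spread more widely, in 38 cells (32.2%, 23.9 to 41.4; 20.1% expected), above the expected number in all 6 libraries, with a ratio of 1.76 (1.36 to 2.25).

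Areg, amphiregulin, a growth factor of tissue repair, gave 74 UMIs in 12 cells, of which 31 were in 1 cell, and its ratio went from 7.26 to 4.33 (3.13 to 5.83) without that cell. It was found in 6, 0, 0, 3, 1 and 2 cells of libraries 1 to 6. Csf2, the cytokine GM-CSF, gave 76 UMIs with 54 in 1 cell, and its ratio went from 6.05 to 1.79 (1.12 to 2.71). Gzmc, a granzyme of strongly activated cells, gave 82 UMIs with 50 in 1 cell, and its ratio went from 3.58 to 1.41 (0.963 to 1.99), an interval that includes 1. Without library 4 the log2 ratio of Gzmc was 0.57. Il10, an inhibitory cytokine, gave 5 UMIs in 2 cells, where 0.781 cells were expected, under the floor for the ratios.

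**Figure D4:**
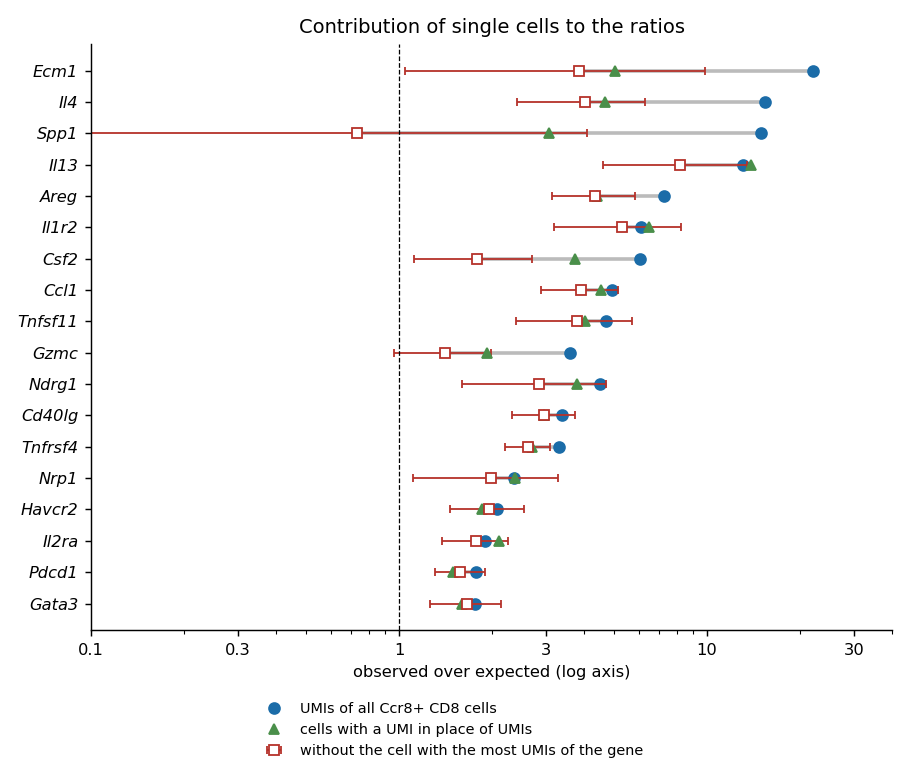
Observed over expected in Ccr8+ CD8 cells (x axis, log scale) for 18 genes (y axis) from all UMIs (blue circles), without the cell with the most UMIs of the gene (red squares, 95% Poisson intervals; the lower bound of Spp1 lies beyond the axis) and from cells with a UMI (green triangles). Il4 goes from 15.4 to 4.02 and Spp1 from 15.02 to 0.730 without 1 cell, while Tnfrsf4, Cd40lg and Il2ra move little.

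The 12 cells with Il4, Il5 or Il13 differed from the other Ccr8+ CD8 cells in some of the genes they carried. These shares rest on few cells and were not matched by library or depth. Tnfrsf4 was found in 10 of 12, Gata3 in 7, Ccl1 in 6, Areg in 6 and Cd40lg in 6. The other 106 cells had Tnfrsf4 in 42, Gata3 in 31, Ccl1 in 7, Areg in 6 and Cd40lg in 30. Nkg7 was found in 8 of 12 and in 95 of 106 cells, and Gzmb in 5 of 12 and in 66 of 106. Shares were closer for Klrd1 (7 of 12 and 58 of 106), Ccl5 (8 and 75) and Runx3 (6 and 63). Ifng (5 and 59) and Klrk1 (2 and 40) were found in smaller shares of the 12 cells. UMIs of Gzmb, Nkg7 and Ccl5 were all at 0 in 4 of the 12 cells and in 6 of the 106.

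The cell with 54 Il4 UMIs had 21 Areg, 19 Ecm1 and 9 Il1rl1 UMIs but 1 Cd8 UMI, and was 1 of those 4. Of the other 3, 1 had 38 Tnfrsf4 UMIs and 1 Cd8 UMI, and both remaining cells had 5 and 7 Cd8 UMIs with 8 and 9 of Il13 and 10 and 11 of Cd40lg. Both Cd8a and Cd8b1 were found in 6 of the 12 cells. Whether these cells are CD8 cells, CD4 cells or doublets was not tested.

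Ccl1, the gene of the CCR8 ligand, was found in 13 Ccr8+ CD8 cells, 11.02% (6.0 to 18.1), where 2.43% were expected. The ratio was 4.93 (3.80 to 6.28) and 3.90 (2.89 to 5.14) without the richest cell, and at 1000 UMIs per cell the shares were 8.11% (3.77 to 14.8) and 0.935%. The cells numbered 0, 0, 2, 5, 4 and 2 in libraries 1 to 6. With cycling cells left out its log2 ratio went from 2.26 to 1.56. Of the other CCR8 ligand genes on the list, none was in the table.

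Genes that mark the CD4 lineage were also measured, since CD4 cells can enter the gate. The 5 genes of the CD4 lineage list summed to 3.34 UMIs per 10000 (2.14 to 3.996 by library) in Ccr8+ CD8 cells and 0.861 (0.514 to 1.83) in Ccr8- CD8 cells. Most of the sum was Cd40lg and Tnfsf11. Zbtb7b, the factor that sets the CD4 lineage, gave 5 UMIs in 5 cells, where 1.75 UMIs were expected. At least 2 Cd8 UMIs were found in 4 of these 5 cells and in 100 of all 118. Runx3, its CD8 counterpart, had a log2 ratio of 0.24.

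In the 74 cells with UMIs of both Cd8a and Cd8b1, Tnfrsf4 was found in 50% (38.1 to 61.9; 18.3% expected), Cd40lg in 33.8% (23.2 to 45.7; 10.1% expected), Pdcd1 in 55.4% (43.4 to 67.0; 35.2% expected) and Gzmk in 24.3% (15.1 to 35.7; 48.0% expected). The ratios of observed to expected shares were thus of like size in cells with both CD8 chains. For Il4 the ratio in these cells was 3.99 (2.23 to 6.58) and for Areg 6.08 (4.36 to 8.24). Of the 36 cells with Cd40lg, 25 had both chains, 30 had Nkg7 and 25 had Ccl5. Of all 118 Ccr8+ CD8 cells, 74, 103 and 83 had them, which are like shares.

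The genes with the most extreme ratios, of 1 direction in every library with at least 10 Ccr8+ CD8 cells and at least 1 observed plus expected UMI of the gene, were Ecm1, Il4, Spp1, Areg, Il1r2, Ccl1, Tnfsf11, Ndrg1, Lgals7 and Cd40lg on the high side. The libraries that counted were 2 of 4 for Ecm1 and Spp1, 3 of 4 for Il4, Il1r2, Ccl1, Ndrg1 and Lgals7, and 4 of 4 for Areg, Tnfsf11 and Cd40lg. In libraries left out by this minimum the observed UMIs were 0, as in library 1 for Ccl1 (0.754 expected) and Ndrg1 (0.880 expected). Apart from Areg, Ccl1 and Cd40lg, these genes had only 1.04 (Ecm1) to 6.52 (Lgals7) UMIs expected over all libraries. They could reach the minimum of 20 observed plus expected UMIs only through the Ccr8+ cells, so their place here is a description. Ecm1, a secreted matrix protein, rested on 19 of its 23 UMIs in 1 cell (ratio 22.1, and 3.85 without it), and Spp1, osteopontin, on 20 of 21 (ratio 15.02, and 0.730 without it). Il1r2, the decoy receptor for IL-1, was by contrast spread over 13 cells with at most 3 UMIs in any (11.02% of cells, 6.0 to 18.1; 1.70% expected), in 1, 1, 1, 0, 5 and 5 cells of the 6 libraries, with a ratio of 6.10 (3.82 to 9.24). Tnfsf11, the cytokine RANKL, was found in 15 cells (12.7% against 3.15%; ratio 4.70, 3.15 to 6.75; at 1000 UMIs per cell 3.60%, 0.990 to 8.97, against 1.26%, inside that interval), Ndrg1, a gene of the stress and hypoxia response, in 11 (ratio 4.50; 2.85 without the richest cell) and Lgals7, a galectin, in 14 (ratio 3.68; log2 1.80, and 1.16 without library 3).

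On the low side the genes were Gimap9, Tsr3, Psmd9, Trbv13-3, Gzmk, Esm1, Ifi209, Ccdc85b, Map3k2 and Zbtb7a, in 4 of 4 counted libraries, or 3 for Esm1. Gimap9, a GTPase of lymphocytes, gave 9 UMIs where 31.9 were expected (ratio 0.282, 0.129 to 0.535), in 9 cells where 23.6 were expected. The other 8 besides Gzmk gave 6 to 10 UMIs each, with ratios from 0.320 (Tsr3) to 0.421 (Zbtb7a). Of these, 2 were within 2-fold without 1 library, Ifi209 (log2 -0.96 without library 5) and Zbtb7a (-0.98 without library 6). Of the 62 genes at least 2-fold higher, 30 stayed past 2-fold when the cell richest in the gene was left out, and all 62 were found in more cells than expected, 48 of them in at least 2 times as many. The 62 were chosen by their UMIs in these same cells, so the counts of cells describe them and add no support.

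Nrp1, a receptor best known on Treg cells, was found in 15 cells (12.7%, 7.29 to 20.1; 5.34% expected), with a ratio of 2.37 (1.41 to 3.75) and 1.99 without its richest cell. Capg, an actin-capping protein, was found in 44.9% (35.7 to 54.3; 29.5% expected), and Ikzf2, the factor Helios, in 23.7% (16.4 to 32.4; 15.2% expected). At 1000 UMIs per cell the shares were 4.50% (1.48 to 10.2; 1.36% expected) for Nrp1, 18.9% (12.1 to 27.5; 11.7% expected) for Capg and 9.91% (5.05 to 17.04; 5.41% expected) for Ikzf2, so that the Ikzf2 difference was not detectable at that depth. All 8 tested Treg-associated genes were above 1 (57.5% of all genes were), from Tgfb1 (log2 0.17) to Tnfrsf4 (1.72), which is also a costimulatory receptor. Nrp1, with 7.59 UMIs expected, could reach the minimum of 20 only through the Ccr8+ cells. The count of this list is therefore a description, and the share of all genes is no test of it. Foxp3 itself was 0 in every cell by the rule.

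The study listed genes that differed between CCR8+ and CCR8- CD4+ Tconv cells, in bulk RNA of cells sorted from tumors of DTx-treated mice. Of the genes higher there, 23 could be measured in CD8 cells here and 22 had a ratio above 1, with 5 at least 2-fold higher (1.37% of all genes were), 0 lower, and a median log2 ratio of 0.41. They were Il13, Areg, Il1r2, Hilpda (log2 1.16), a lipid droplet protein, and Got1 (ratio 2.08), an aminotransferase. Il13 and Il1r2, with 1.84 and 3.61 UMIs expected, could reach the minimum of observed plus expected UMIs only through the Ccr8+ CD8 cells. The counts of this list are therefore a description, and the share of all genes is no test of them. Of the genes lower there, 18 could be measured and 8 had a ratio below 1, with a median of 0.02 and 0 past 2-fold in either direction. The background for the counts above 1 is 57.5% of all genes.

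The same measure was taken in CD4 Tconv cells, in which 117 Ccr8+ cells were set against 1088 Ccr8- cells. In CD4 cells the medians of those lists were 0.82 (42 genes) and -0.54 (19 genes). The 2 comparisons share no cells. For single genes, the ratio in CD8 cells was divided by that in CD4 cells, and the quotient was given an exact 95% interval for counting error.

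Several genes had a larger ratio in CD8 cells. Tnfrsf4 was 2.09 times higher by this quotient (1.76 to 2.48), from a ratio of 1.58 in CD4 cells. A single cell gave 38 of its 179 UMIs in Ccr8+ CD8 cells. Without that cell the log2 ratio in CD8 cells was 1.38 in place of 1.72, against 0.66 in CD4 cells, so the quotient is smaller. The quotient was 3.03 for Cd40lg (2.32 to 3.95), whose CD4 ratio was 1.12. It was 1.82 for Icos (1.501 to 2.20), whose CD4 ratio was 0.747, the opposite side of 1. Areg (4.65, 3.51 to 6.12), Ccl1 (2.95, 2.08 to 4.15) and Nrp1 (3.13, 1.55 to 6.31) were also above 1. Chosen after seeing the data, leaving out the CD8 cell richest in the gene gave 2.77 (1.94 to 3.88) for Areg, and leaving out the richest cell of each gate 3.41 (2.37 to 4.82). For Ccl1 the quotient was 1.60 without library 5 and 5.96 without library 4.

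Levels show where these cells stood. Tnfrsf4 reached 4.12 UMIs per 10000 in Ccr8+ CD8 cells, against 0.861 in Ccr8- CD8 cells, 6.92 in Ccr8- CD4 Tconv cells and 12.3 in Ccr8+ CD4 Tconv cells. It thus remained lower than in either CD4 population.

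Other genes had like ratios in both lineages, within wide intervals. The quotient was 0.798 for Pdcd1 (0.615 to 1.04), 1.05 for Havcr2 (0.692 to 1.60), 1.03 for Tnfrsf9 (0.797 to 1.33), 1.25 for Il2ra (0.909 to 1.72) and 1.01 for Gzma (0.784 to 1.32). An interval that includes 1 does not show that the ratios are equal. Ccl5 had a smaller ratio in CD8 cells (0.735, 0.668 to 0.810). The quotient of Ccl5 was 0.880 without library 1, 0.538 without library 3 and 0.939 without library 5. Without the richest cell of each gate it was 0.918 (0.821 to 1.03) for Ccl5, an interval that includes 1, and 0.752 (0.573 to 0.990) for Pdcd1, one that does not. Mt1, a metallothionein that binds zinc, was at 2.45 in CD4 cells and 1.24 in CD8 cells, a quotient of 0.508 (0.433 to 0.595).

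**Figure D5:**
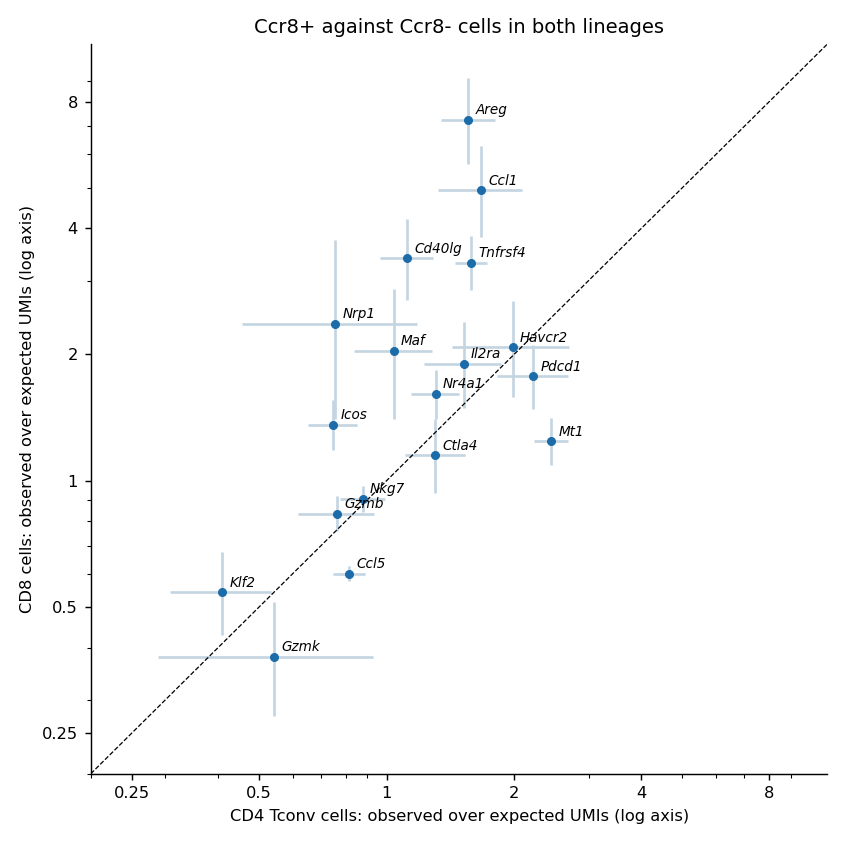
Observed over expected UMIs in Ccr8+ cells of the CD4 Tconv gate (x axis, log scale) and of the CD8 gate (y axis, log scale) for 18 genes, with 95% Poisson intervals; the dashed line marks equal ratios. Areg, Ccl1, Cd40lg and Tnfrsf4 lie above the line, Mt1 and Ccl5 below it, and Pdcd1 and Havcr2 close to it.

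Cells just inside the rule, with 1 Ccr8 UMI, held Tnfrsf4 in 41.7%, Pdcd1 in 41.7%, Ccl5 in 67.7% and Gzmk in 22.9% of 96 cells. Those with 2 or more Ccr8 UMIs held them in 54.5, 50, 81.8 and 13.6% of 22 cells. Just outside the rule, Ccr8- CD8 cells of the same strata as the 96 would hold them in 17.1, 29.9, 84.8 and 41.6%. For the strata of the 22 cells the expected shares were 12.8, 24.1, 80.0 and 33.3%, so Ccl5 was not below its expected share there. Cd40lg was found in 32.3% of the 96 and 22.7% of the 22 cells (10.4 and 9.99% expected). Havcr2 was found in 30.2 and 18.2% (16.2 and 10.0% expected).

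T cell receptor beta V genes gave no dominant segment. Of the 118 cells, 54 had UMIs of exactly 1 of the 25 Trbv genes in the table. Trbv12-1 led with 9 of 54 cells, 16.7% (7.92 to 29.3), where 4.08 cells were expected from Ccr8- CD8 cells of the same libraries, followed by Trbv13-2 with 6. A V gene does not identify a clone.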

How the data were processed

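TCR-b+ T cells were sorted from B16-F10 tumors and prepared as 10x Chromium 5′ libraries. The study's methods name mm10 as the genome, and the submitters' processing notes name mm9. The authors deposited 1 table of raw UMI counts, genes by cells, merged from 6 libraries with Cell Ranger and filtered in Seurat to 200 to 2500 genes and under 5% mitochondrial transcripts (0 cells lay outside). Totals per library ran from 1916305 to 5127776 UMIs.

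Observed UMIs of Ccr8+ CD8 cells were set against those expected from Ccr8- CD8 cells of the same library and depth quartile (pseudocount 0.5 on the log2 scale, minimum 20 observed plus expected UMIs). Intervals are 95% exact Poisson or Clopper-Pearson binomial and omit the error of the expected value. Without a link from libraries to samples there were no replicates and no tests. Beyond list genes, the text names the 10 highest and 10 lowest ratios whose interval excludes 1 and whose direction is shared by every library with at least 10 Ccr8+ CD8 cells in which the gene has at least 1 observed plus expected UMI. Cd74 and the other examples were chosen after their values were seen. The members and gene lists were chosen with earlier results of these data known. Doublets were not called. The method was tested on simulated data. Python 3.11.15, numpy 2.4.6, scipy 1.17.1 and pandas 2.3.3 were used. Thinning to 500, 1000 and 1500 UMIs, other matching, filters, scaling, gates and left-out cells or libraries were alternatives. Some genes are not reported here and were left out of the lists and the naive-like rule.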

Additional observations from a re-analysis of the deposited data

Results flagged for a closer look

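UMIs of stromal marker genes appeared in the Ccr8+ CD8 cells, 5 in 5 cells over 2 of 3 genes, with Sparc at 0. This was above the 3 counts that a count of 0 allows, and it was 0.115 per 10000 UMIs against 0.238 in Ccr8- CD8 cells.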

How the results depend on the processing

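No paired analysis was possible because no label ties the library numbers to the PBS and DTx samples. The share of 2.62% was 0.766, 0.910 and 1.75% with cells thinned to 500, 1000 and 1500 UMIs, 3.21% with at least 2 Cd8 UMIs and 3.94% with both Cd8 genes; leaving out each library gave 2.26 to 3.21%, the highest without library 2. The 62 higher and 31 lower genes were 96 higher with no matching, 169 and 122 with a filter of 10 UMIs, 18 and 2 with one of 50, 934 and 1273 with none, 151 and 48 with cells weighted equally, and 353 and 186 past 1.5-fold. Lower genes were 12 with at least 2 Ccr8 UMIs and 17 without cycling cells. Leaving out each library gave 35 to 63 higher and 19 to 33 lower genes. Chosen after seeing the data, leaving out the cell richest in each gene, which can only lower an observed sum, gave 30 higher and 87 lower genes and turned Spp1 to -0.32, and counting cells with a UMI gave 10 lower genes. The study's higher list had a median of 1.36 with at least 2 Ccr8 UMIs, over 5 genes. The ratio of cell shares for Tnfrsf4 (2.70) was 6.20 and 5.70 at 500 and 1000 UMIs, and for Gzmk (0.529) 0.306 at 1000. The thinned ratios were matched by library only, so they differ from the main ones in matching as well as in depth. The Tnfrsf4 quotient of CD8 over CD4 was 2.54 with matching by library only, 3.31 without cycling cells and 1.76 to 2.53 without 1 library. The causes were not tested. Of 820 other values of list medians 631 stayed inside the interval of the main value, and of 918 of single genes 804. Counting depth limits every gene found in under 10 cells.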
